A study of Homo sapiens with 6 samples.

Results

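The genes described here are 46 genes of DNA repair, taken by name from the 15598 genes of a deposited RNA sequencing table. They cover the Fanconi anemia pathway (12 genes), nucleotide excision repair (11), nonhomologous end joining (6), base excision repair (5), the translesion polymerases with polymerase theta (5), the processing of broken ends (4) and mismatch repair (3). All 46 are in the table and all 46 passed the filter on low counts. The cells were MHCC97H, a hepatocellular carcinoma line known for high metastatic capacity. One group carried a short hairpin RNA against HNRNPC (shHNRNPC, 3 libraries named SI_3, SI_3_2 and SI_3_3) and the other a control hairpin (shcontrol, 3 libraries named NC_3, NC_3_2 and NC_3_3). Values in single libraries are given in that order. The labels tell apart 1 knockdown hairpin in 1 cell line, so an effect of that hairpin on other transcripts cannot be told apart from that of the knockdown. The series' design text calls the replicates independent but does not say that they came from separate cultures, so p-values measure the spread between these libraries, which may be technical.

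The protein made from HNRNPC, hnRNP C, coats new transcripts in the nucleus at runs of uridine and influences which splice sites are used. Each repair pathway handles another kind of damage. The Fanconi anemia pathway unhooks crosslinks between DNA strands. Nucleotide excision repair removes bulky lesions such as those left by ultraviolet light, base excision repair replaces single damaged bases, and mismatch repair corrects errors of replication. Broken ends are either rejoined directly or first cut back for recombination, and translesion polymerases copy past lesions that stop the replicative enzymes.

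Total counts were 16692497 to 17889820 in the shHNRNPC libraries and 15563077 to 18328475 in the shcontrol libraries. HNRNPC had 1010, 1164 and 1042 counts in shHNRNPC, against 14409, 13507 and 15908 in shcontrol, which left 7.31% of the shcontrol level. Of the hepatocyte markers, ALB and AFP stayed at or under 0.357 CPM (counts scaled to a common library total) in all 6 libraries, and CPS1 averaged 33.0 in shHNRNPC and 26.4 in shcontrol. Of the epithelial markers, the keratin KRT8 was at 1137 to 1149 CPM in shHNRNPC and 1014 to 1029 in shcontrol. KRT18 was at 389 to 407 CPM in shHNRNPC and 362 to 374 in shcontrol. CDH1 was at 12.4 to 17.3 CPM over all 6 libraries, and EPCAM did not exceed 0.419. Of 11831 genes tested with edgeR's quasi-likelihood test, 3520 were higher in shHNRNPC (29.8%) and 3708 were lower (31.3%) at a Benjamini-Hochberg adjusted p under 0.05. All adjusted p-values below come from that fit.

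Among the repair genes, 32 of 46 were called, beside 61.1% of all tested genes. Of the 46, 24 were lower (52.2%), 8 were higher (17.4%) and 14 did not pass. Their median log2 fold change, shHNRNPC over shcontrol, was -0.19, beside -0.0041 over all tested genes. In 25 genes every shHNRNPC library was below every shcontrol library, and in 7 every shHNRNPC library was above, where such separation held for 33.0% and 30.9% of all tested genes. Called falls of at least 0.322 on the log2 scale were seen in 19 repair genes and rises of that size in 2 (FANCC and FANCL), beside 20.1% and 12.3% of all tested genes. Of the 9 that fell at least 1.5-fold (9.12% of all genes), MRE11 and POLK fell at least 2-fold, as did 1.58% of all genes. No repair gene rose by 1.5-fold or more, beside 4.9% of all genes at 1.5-fold and 1.87% at 2-fold. When the test asked for a change larger than 0.322 on the log2 scale, 13 repair genes were lower and 0 higher, beside 12.6% and 6.47% of all genes. At an unadjusted p under 0.05 that test gave 16 lower and 0 higher.

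Counts and medians varied from pathway to pathway. All 4 genes of broken-end processing were lower (RAD50 with an uncertain count, given below), with a median log2 fold change of -0.76, and 4 of 5 polymerase genes were lower, with a median of -0.44. Mismatch repair (median -0.20, 1 of 3 lower), base excision repair (-0.14, 3 of 5 lower and 1 higher), nucleotide excision repair (-0.13, 6 of 11 lower and 1 higher) and end joining (-0.10, 2 of 6 lower and 1 higher) lay between. The Fanconi genes were divided, with 5 of 12 higher, 4 lower and a median of 0.018. These medians are descriptions of 3 to 12 genes each and were not tested against each other.

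**Figure D1:**
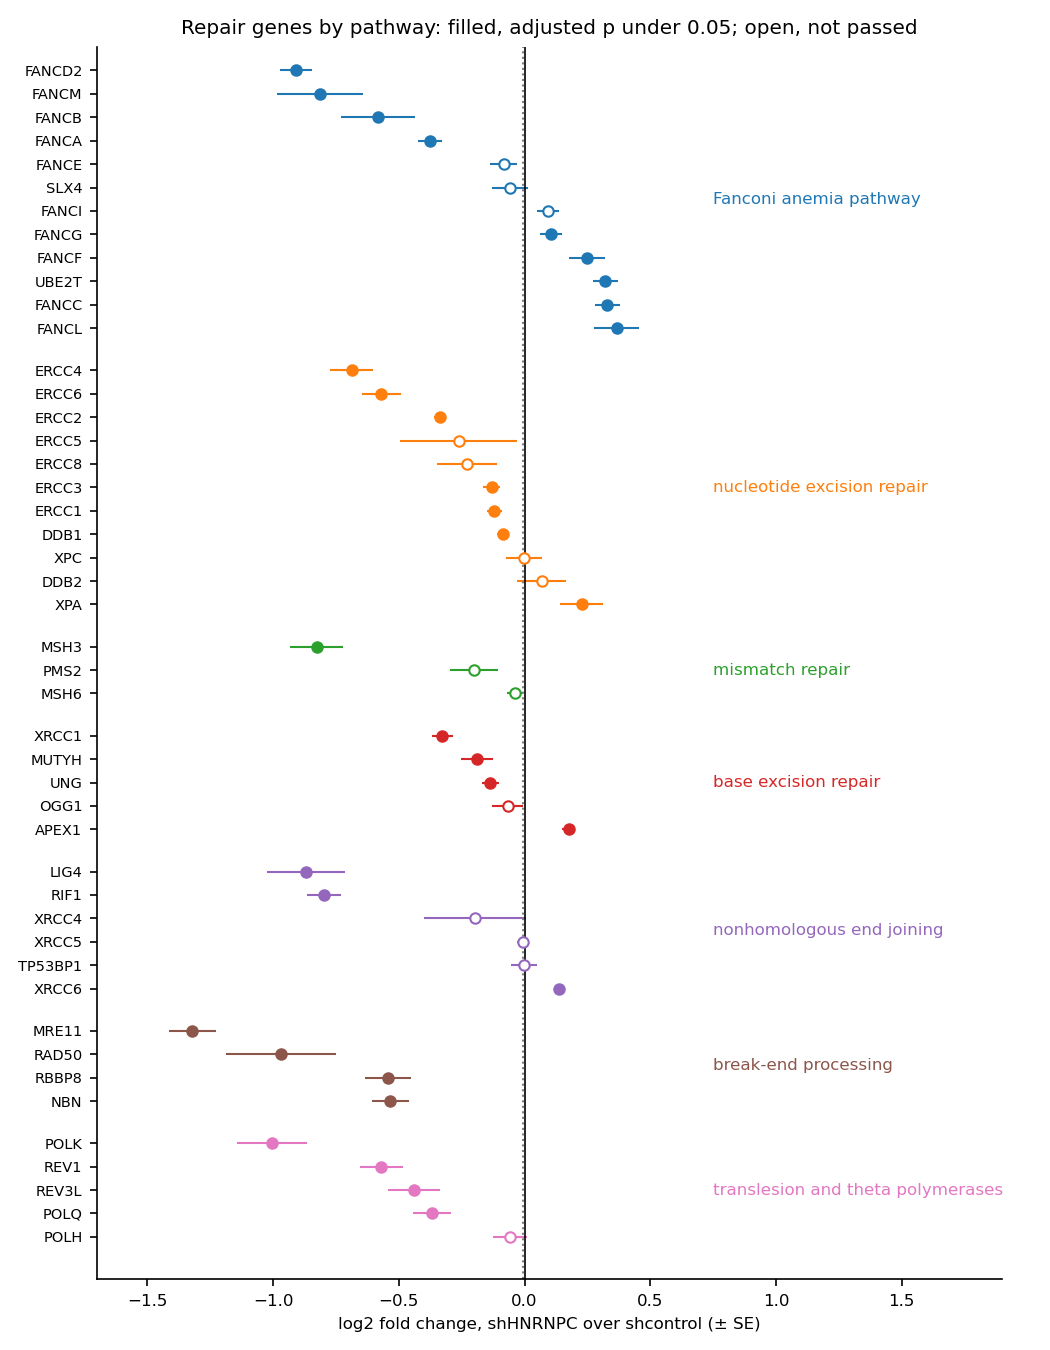
Log2 fold change of each of the 46 repair genes, shHNRNPC over shcontrol, with its standard error, grouped by pathway. Filled points have an adjusted p under 0.05 and the dotted line is the median of all tested genes at -0.0041. The 4 genes of broken-end processing lie between -1.32 and -0.53, while the Fanconi genes spread from -0.91 to 0.37.

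The promoters of 43 of the 46 genes were found in a RefSeq table of the GRCh38.p14 build, without FANCI, XRCC5 and NBN. The 250 bases before the transcription start are shown for 3 subunits of the Fanconi core complex, because these subunits moved in opposite directions: FANCC was higher in shHNRNPC, and FANCM and FANCB were lower. They were also chosen because GENCODE 29 places no exon in these windows. Capitals mark 3 kinds of motif, read on both strands: the GC box GGGCGG, the CCAAT box and an E2F site TTTCGCGC.
FANCC (chr9:95317710-95317959, minus strand): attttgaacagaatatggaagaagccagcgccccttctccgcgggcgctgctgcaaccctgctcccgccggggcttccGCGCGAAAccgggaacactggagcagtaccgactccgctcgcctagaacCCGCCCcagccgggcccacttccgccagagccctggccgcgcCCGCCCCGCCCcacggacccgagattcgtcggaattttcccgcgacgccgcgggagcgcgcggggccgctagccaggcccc
FANCM (chr14:45135680-45135929, plus strand): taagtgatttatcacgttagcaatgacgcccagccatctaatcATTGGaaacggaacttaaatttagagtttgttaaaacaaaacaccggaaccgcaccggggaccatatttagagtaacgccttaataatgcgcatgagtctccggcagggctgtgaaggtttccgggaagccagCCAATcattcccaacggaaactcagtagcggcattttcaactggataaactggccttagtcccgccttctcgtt
FANCB (chrX:14873070-14873319, minus strand): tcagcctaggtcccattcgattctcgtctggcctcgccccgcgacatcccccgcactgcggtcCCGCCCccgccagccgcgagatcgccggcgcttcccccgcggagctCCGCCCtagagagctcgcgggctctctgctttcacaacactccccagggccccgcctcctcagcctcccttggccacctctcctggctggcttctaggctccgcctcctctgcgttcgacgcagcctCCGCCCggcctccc
FANCC holds 3 GC boxes and 1 E2F site and has a GC content of 71.2%. FANCM holds 2 CCAAT boxes and FANCB 3 GC boxes, with GC contents of 46.4% and 71.6%. Over the 43 matched repair promoters the median GC content was 64.8%, beside 58.0% over 27305 promoters. The GC box was in 67.4% of the repair promoters and 42.3% of all, CCAAT in 39.5% and 33.0%, and the ETS site CCGGAAG in 20.9% and 8.82%. The E2F form TTTCGCGC was in 4.65% and 0.469%, and TTTGGCGC, which shares bases with it where both occur in MSH3, in 2.33% and 0.553%. The E2F percentages rest on few genes, with the former form in 2 of the 43 repair promoters (FANCC and MSH3) and the latter in 1 (MSH3). Motifs of 2 other kinds were not found in the repair promoters. The NRF1 site and the interferon-stimulated response element were each in 0 of the 43, beside 1.13% and 3.07% of all promoters. At shares this low, few or no matches would be looked for in 43 promoters, so nothing is read from their absence. The 27305 promoters were not limited to genes tested here, whereas all 46 repair genes passed the filter on low counts. Shares among tested genes alone were not computed. All motifs given here are matches of letters in a fixed window and say nothing of binding.

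Broken-end processing held the largest fall among the repair genes. MRE11, the nuclease of the MRE11-RAD50-NBN complex that grips a broken end, lies on chromosome 11, 94415578 to 94493908, in GENCODE 29 (GRCh38). On the CPM scale with TMM factors, used for single repair genes from here on, it had 8.28, 7.99 and 7.98 CPM in shHNRNPC, against 19.5, 19.4 and 21.5 CPM in shcontrol. The groups did not overlap, and the level in shHNRNPC was 40.0% of that in shcontrol (log2 fold change -1.32, SE 0.095, adjusted p = 1.65e-16). In bulk libraries, fewer cells that express a gene and less RNA per cell cannot be told apart.

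NBN, the subunit that brings the complex to the checkpoint kinase, had 19.5, 17.6 and 19.1 CPM in shHNRNPC and 25.8, 26.9 and 28.6 CPM in shcontrol (log2 fold change -0.53, SE 0.074, adjusted p = 3.03e-08). RBBP8, also known as CtIP, starts end resection together with MRE11. It had 13.8, 11.5 and 11.9 CPM in shHNRNPC and 19.6, 16.6 and 17.9 CPM in shcontrol (log2 fold change -0.54, SE 0.092, adjusted p = 1.82e-06). Both were lower in every shHNRNPC library, and both fell by less than MRE11 did.

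RAD50, the coiled-coil ATPase of the complex, was counted as lower, but its count is uncertain. It had 25, 35 and 28 counts in shHNRNPC and 60, 44 and 68 counts in shcontrol (log2 fold change -0.97, SE 0.22, adjusted p = 1.77e-04). In GENCODE 29 the gene AC116366.3 shares 7784 exonic bases with RAD50 on the same strand, and it is counted separately in the deposited table, with 98, 119 and 112 counts in shHNRNPC and 65, 77 and 81 counts in shcontrol. That gene was higher (log2 fold change 0.55, adjusted p = 0.00121). With both added together, the sum was 8.06 ± 0.663 CPM in shHNRNPC and 7.68 ± 0.334 CPM in shcontrol (SD, n = 3 each), a log2 fold change of 0.071 with an SE of 0.12 (adjusted p = 0.623 by edgeR). The fall of RAD50 therefore depends on how reads of shared exons were assigned, and without it 3 genes of broken-end processing were lower.

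**Figure D2:**
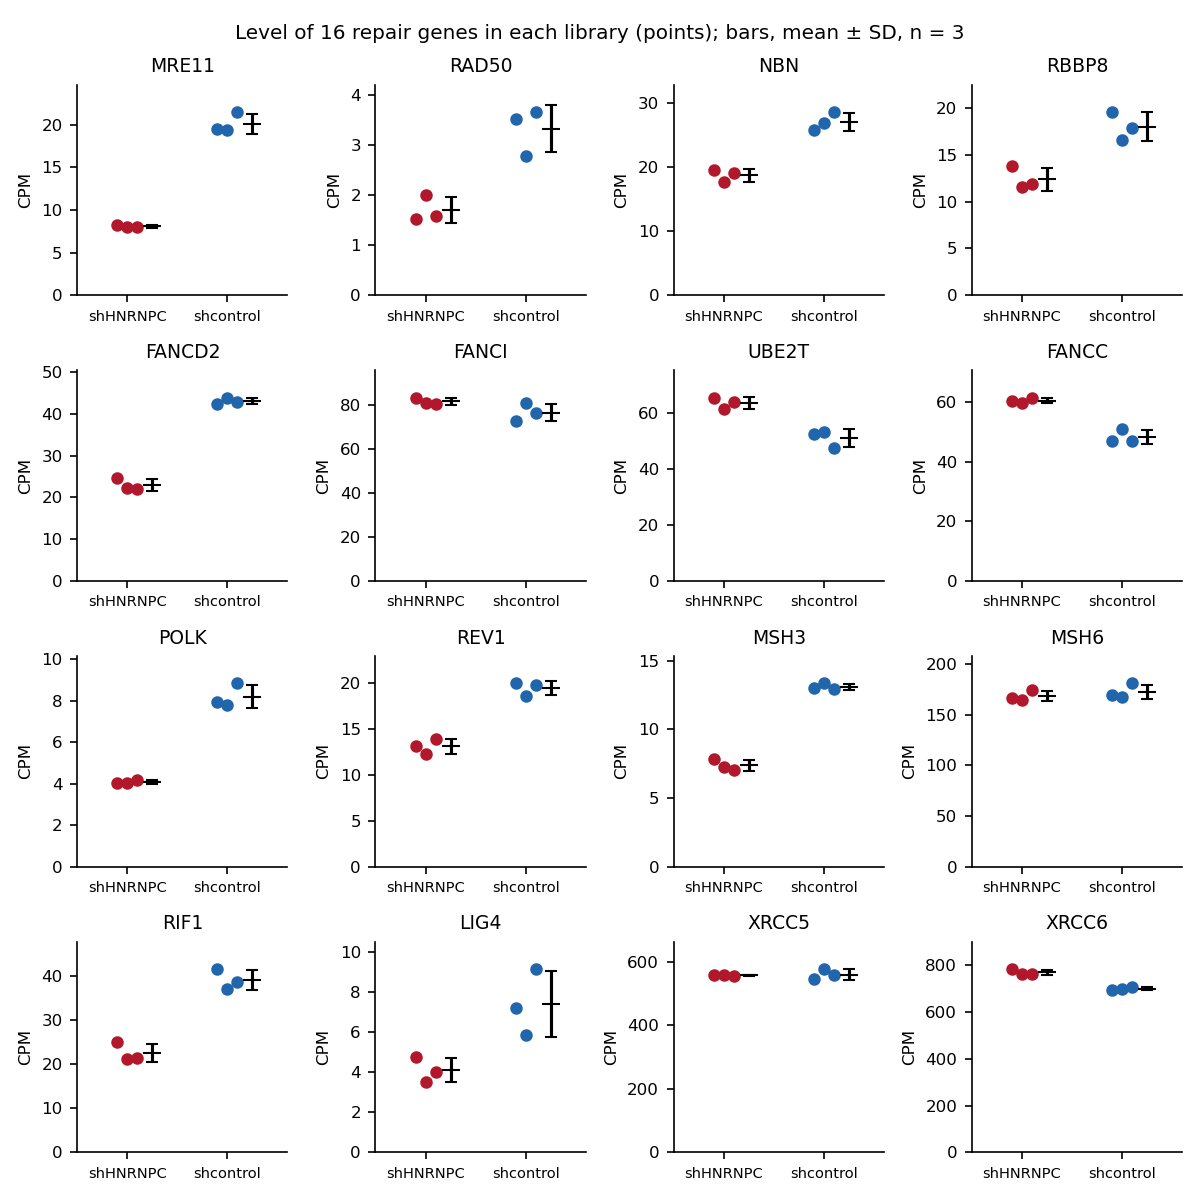
Level of 16 repair genes in CPM, with 1 point per library, shHNRNPC on the left and shcontrol on the right of each panel, and bars for the mean and SD (n = 3). MRE11, RAD50, NBN, RBBP8, FANCD2, POLK, REV1, MSH3, RIF1 and LIG4 separate downward, UBE2T, FANCC and XRCC6 separate upward, and FANCI, MSH6 and XRCC5 overlap.

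Of the polymerases that copy past lesions, POLK moved most. POLK, a polymerase that bypasses bulky guanine adducts, had 4.02, 4.05 and 4.19 CPM in shHNRNPC and 7.94, 7.78 and 8.82 CPM in shcontrol (log2 fold change -1.004, SE 0.14, adjusted p = 2.31e-08). REV1, the scaffold that switches one translesion polymerase for another, had 13.1, 12.3 and 13.97 CPM in shHNRNPC and 19.99, 18.6 and 19.8 CPM in shcontrol (log2 fold change -0.57, SE 0.086, adjusted p = 1.77e-07). Neither gene's groups overlapped.

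REV3L, the catalytic subunit of polymerase zeta, had 9.19, 10.6 and 8.83 CPM in shHNRNPC and 12.99, 11.8 and 13.9 CPM in shcontrol (log2 fold change -0.44, SE 0.10, adjusted p = 3.04e-04). POLQ, polymerase theta, joins ends at short repeats. It had 19.1, 18.8 and 17.5 CPM in shHNRNPC and 24.3, 24.3 and 23.0 CPM in shcontrol (log2 fold change -0.37, SE 0.076, adjusted p = 4.24e-05). Once fold changes were adjusted for the GC content and length of transcripts, both calls were lost, with log2 fold changes of -0.054 and -0.028 (adjusted p = 0.684 and 0.781 by edgeR). POLH, which copies past ultraviolet dimers, averaged 29.2 ± 2.90 CPM in shHNRNPC and 30.3 ± 0.509 CPM in shcontrol (SD, n = 3 each) and did not pass (adjusted p = 0.469).

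In the Fanconi pathway both partners of the clamp that is ubiquitinated at a crosslink are members, and 1 of them fell. FANCD2 had 24.6, 22.3 and 21.9 CPM in shHNRNPC and 42.3, 43.9 and 42.9 CPM in shcontrol, which left 53.2% of the shcontrol level (log2 fold change -0.91, SE 0.063, adjusted p = 6.17e-17). Its partner FANCI had 83.3, 81.1 and 80.5 CPM in shHNRNPC and 72.8, 80.8 and 76.1 CPM in shcontrol (log2 fold change 0.094, SE 0.043, adjusted p = 0.0548). Its groups overlapped by 1 library, and it was called higher without NC_3_2 (adjusted p = 0.0151), with RLE (0.0403) or upper-quartile (0.0261) scaling, with no filter (0.0410) and with a filter of 1 CPM (0.0413, all adjusted p by edgeR). Adjusted for GC and length it was at 0.27 and called higher (edgeR adjusted p = 9.31e-08). FANCD2 has partial copies elsewhere in the genome, and how reads shared with them were counted is not given in the sources used here.

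UBE2T, the conjugating enzyme that ubiquitinates the clamp, was higher, with 65.6, 61.4 and 64.2 CPM in shHNRNPC and 52.4, 53.4 and 47.5 CPM in shcontrol (log2 fold change 0.32, SE 0.050, adjusted p = 3.34e-07). FANCL, the ubiquitin ligase subunit of the core complex, had 17.6, 17.5 and 16.9 CPM in shHNRNPC and 14.1, 12.02 and 14.1 CPM in shcontrol (log2 fold change 0.37, SE 0.089, adjusted p = 3.91e-04). The enzyme pair that modifies the clamp was thus higher while FANCD2, one of its substrates, was lower.

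The other core complex genes also went both ways. FANCC had 60.2, 59.6 and 61.4 CPM in shHNRNPC and 46.7, 50.8 and 46.9 CPM in shcontrol (log2 fold change 0.33, SE 0.050, adjusted p = 1.59e-07). FANCF, an adaptor of the complex, rose 1.19-fold (adjusted p = 0.00286). FANCG rose 1.08-fold (adjusted p = 0.0413), a call that was lost without any 1 of 4 libraries (SI_3_2, SI_3_3, NC_3_2 or NC_3_3), with adjusted p-values up to 0.152. The call was also lost with DESeq2 (adjusted p = 0.0778) and with library size alone (edgeR adjusted p = 0.215). Adjusted for GC and length, FANCG was at -0.047 and not called (edgeR adjusted p = 0.375). None of the 5 Fanconi genes that rose reached 1.5-fold.

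FANCM, the translocase that anchors the complex on DNA, fell to 3.04, 2.68 and 2.83 CPM in shHNRNPC, against 4.94, 5.44 and 4.68 CPM in shcontrol (log2 fold change -0.81, SE 0.17, adjusted p = 6.36e-05). FANCB, which binds FANCL in the complex, had 5.11, 5.25 and 3.68 CPM in shHNRNPC and 7.35, 6.20 and 7.37 CPM in shcontrol (log2 fold change -0.58, SE 0.15, adjusted p = 6.76e-04). With fold changes adjusted for GC and length, FANCB was at -0.28 and no longer called (edgeR adjusted p = 0.0949).

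FANCA had 52.8, 53.1 and 52.6 CPM in shHNRNPC and 69.0, 69.4 and 67.4 CPM in shcontrol (log2 fold change -0.38, SE 0.046, adjusted p = 1.25e-09). Its exons share 2302 bases with ZNF276 on the opposite strand, and whether counting used strand is not given in the sources used here. FANCE averaged 44.0 ± 2.29 CPM in shHNRNPC and 46.6 ± 1.198 CPM in shcontrol, and the nuclease scaffold SLX4 25.1 ± 1.68 CPM in shHNRNPC and 26.1 ± 0.972 CPM in shcontrol (SD, n = 3 each). Neither passed (adjusted p = 0.186 and 0.493 by edgeR). Adjusted for GC and length, FANCE was called lower, at -0.24 (edgeR adjusted p = 1.003e-04).

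Nucleotide excision repair begins with lesion recognition, by a global arm and an arm coupled to transcription. In the global arm, XPC, which senses the distorted helix, was at 26.6 ± 2.04 CPM in shHNRNPC and 26.7 ± 2.03 CPM in shcontrol, and DDB2 at 11.9 ± 0.386 CPM in shHNRNPC and 11.3 ± 0.116 CPM in shcontrol (SD, n = 3 each). Neither passed, while DDB1, the partner of DDB2, was called lower (log2 fold change -0.087, also given below). ERCC6 encodes CSB, the ATPase that binds stalled RNA polymerase. It had 16.3, 17.002 and 16.6 CPM in shHNRNPC and 22.9, 25.3 and 25.99 CPM in shcontrol (log2 fold change -0.57, SE 0.078, adjusted p = 1.75e-08). ERCC8, its partner CSA, had 8.40, 7.70 and 7.02 CPM in shHNRNPC and 7.82, 9.75 and 9.47 CPM in shcontrol and did not pass (adjusted p = 0.0965). ERCC8 shares 1541 exonic bases on the same strand with the pseudogene GNL3LP1, so its count is uncertain. The difference between the 2 arms was not tested.

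The incision enzymes of excision repair also moved unequally. ERCC4, or XPF, is the nuclease that cuts on the 5′ side together with ERCC1. It had 13.2, 11.9 and 13.3 CPM in shHNRNPC and 21.6, 20.3 and 19.96 CPM in shcontrol (log2 fold change -0.69, SE 0.085, adjusted p = 2.02e-09). ERCC1 itself fell by 0.12 on the log2 scale (SE 0.030, adjusted p = 5.19e-04), at 223 ± 6.73 CPM in shHNRNPC and 243 ± 11.2 CPM in shcontrol (SD, n = 3 each). ERCC1 shares 1593 exonic bases with CD3EAP on the opposite strand. ERCC5, or XPG, the nuclease of the 3′ side, had 31, 29 and 45 counts in shHNRNPC and 38, 47 and 40 counts in shcontrol and did not pass (adjusted p = 0.338). It shares 5213 exonic bases on the same strand with the readthrough gene BIVM-ERCC5, so its count is uncertain.

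The helicases of TFIIH, which open the DNA around a lesion, were both lower. ERCC2, or XPD, had 548, 565 and 580 CPM in shHNRNPC and 708, 714 and 716 CPM in shcontrol (log2 fold change -0.34, SE 0.022, adjusted p = 5.56e-18), the smallest adjusted p among the 46 genes. ERCC3, or XPB, fell by 0.13 on the log2 scale (SE 0.034, adjusted p = 8.27e-04). DDB1, the adaptor of the CUL4 ubiquitin ligase, fell by 0.087 (SE 0.023, adjusted p = 8.99e-04). XPA, the scaffold that checks the lesion, was the 1 gene of this pathway that rose, by 0.23 (SE 0.086, adjusted p = 0.0209). Its groups overlapped, at 26.04, 21.6 and 26.8 CPM in shHNRNPC and 24.7, 17.8 and 20.9 CPM in shcontrol. It lost its call with DESeq2 (adjusted p = 0.217) and without any 1 of SI_3, SI_3_3, NC_3_2 or NC_3_3.

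In mismatch repair the alternative partners that recognise mispaired bases parted. MSH3, which recognises larger loops, had 7.85, 7.25 and 7.07 CPM in shHNRNPC and 12.99, 13.4 and 12.97 CPM in shcontrol (log2 fold change -0.83, SE 0.11, adjusted p = 4.38e-09). MSH6, which recognises single mispairs, had 166, 164 and 174 CPM in shHNRNPC and 169, 167 and 181 CPM in shcontrol (log2 fold change -0.037, SE 0.032, adjusted p = 0.334). Adjusted for GC and length, MSH6 was instead called higher, at 0.30 (edgeR adjusted p = 6.52e-13). MSH6 shares 1785 exonic bases with FBXO11 on the opposite strand. PMS2, an endonuclease of the pathway, had 11.1, 11.6 and 11.5 CPM in shHNRNPC and 12.4, 13.8 and 13.1 CPM in shcontrol and did not pass (adjusted p = 0.0686). It has near-identical pseudogene copies, so its count is uncertain.

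Base excision repair moved by small amounts. XRCC1, the scaffold of single-strand break repair, had 76.1, 79.0 and 85.7 CPM in shHNRNPC and 101, 103 and 98.0 CPM in shcontrol (log2 fold change -0.33, SE 0.042, adjusted p = 3.75e-09). UNG, the glycosylase that removes uracil, fell by 0.14 on the log2 scale (SE 0.036, adjusted p = 0.00104), and MUTYH, which removes adenine opposite oxidised guanine, fell by 0.19 (SE 0.062, adjusted p = 0.00749). MUTYH lost its call without SI_3 (adjusted p = 0.0921).

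APEX1, the endonuclease that cuts the site left by a glycosylase, was higher, at 279, 268 and 265 CPM in shHNRNPC and 246, 239 and 235 CPM in shcontrol (log2 fold change 0.17, SE 0.027, adjusted p = 3.53e-07). Adjusted for GC and length it was at -8.2e-04 and not called (edgeR adjusted p = 0.981). OGG1, the glycosylase for oxidised guanine, averaged 31.1 ± 1.14 CPM in shHNRNPC and 32.6 ± 0.851 CPM in shcontrol (SD, n = 3 each) and did not pass (adjusted p = 0.358). Adjusted for GC and length, OGG1 was called lower, at -0.23 (edgeR adjusted p = 9.92e-04). OGG1 shares 2180 exonic bases with CAMK1 on the opposite strand.

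In end joining 1 Ku subunit was slightly higher and the ligase was lower. The Ku subunits load first on a broken end. XRCC5, or Ku80, had 559, 559 and 554 CPM in shHNRNPC and 544, 577 and 558 CPM in shcontrol (log2 fold change -0.0062, SE 0.022, adjusted p = 0.824). XRCC6, or Ku70, rose by 0.14 on the log2 scale (SE 0.021, adjusted p = 1.41e-07), a call lost when GC and length were adjusted for (0.013, edgeR adjusted p = 0.612). LIG4, the ligase that seals the ends, had 4.75, 3.54 and 4.02 CPM in shHNRNPC and 7.23, 5.89 and 9.15 CPM in shcontrol (log2 fold change -0.87, SE 0.16, adjusted p = 5.09e-06). Its scaffold XRCC4 had 47, 56 and 48 counts in shHNRNPC and 57, 38 and 78 counts in shcontrol, too few for a precise fold (log2 fold change -0.20, SE 0.20, adjusted p = 0.408).

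Of the proteins that steer a break toward end joining by limiting resection, RIF1 fell and TP53BP1 did not pass. RIF1 had 24.9, 21.2 and 21.4 CPM in shHNRNPC and 41.5, 37.1 and 38.5 CPM in shcontrol (log2 fold change -0.80, SE 0.068, adjusted p = 5.86e-14). TP53BP1, or 53BP1, which recruits RIF1, had 49.8, 56.3 and 54.3 CPM in shHNRNPC and 54.7, 52.1 and 54.0 CPM in shcontrol (log2 fold change -0.0030, SE 0.051, adjusted p = 0.965). TP53BP1 shares 3732 exonic bases with TUBGCP4 on the opposite strand, and the strand setting of the counting is not known. Both lists that deal with broken ends therefore held genes that fell, and none of the 3 end-joining genes highest in CPM per kilobase, XRCC6, XRCC5 and TP53BP1, was called lower.

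Within a library, the ratio of 2 partner genes does not depend on how libraries are scaled. In 9 of 10 partner pairs the ratios of the 3 shHNRNPC libraries lay outside those of the 3 shcontrol libraries. An exact two-sided permutation test of 3 against 3 cannot go below p = 0.10, so no p is given. Single genes separated upward in 30.9% and downward in 33.0% of all tested genes, the share for gene pairs in general was not computed, and nothing particular to these partners is read from the count. FANCD2 over FANCI had a log2 ratio of counts of -1.84 ± 0.065 in shHNRNPC and -0.83 ± 0.049 in shcontrol (SD, n = 3 each), a difference of -1.005. MSH3 over MSH6 differed by -0.79, at -4.51 ± 0.11 in shHNRNPC and -3.72 ± 0.077 in shcontrol.

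NBN over MRE11 differed by 0.79, at 1.21 ± 0.062 in shHNRNPC and 0.43 ± 0.037 in shcontrol. ERCC1 over ERCC4 differed by 0.57, and XRCC4 over LIG4 by 0.69 with at most 170 counts in a library for either gene. REV1 over REV3L was the pair that overlapped, at 0.46 ± 0.23 in shHNRNPC and 0.59 ± 0.077 in shcontrol. Smaller shifts were seen for XRCC5 over XRCC6 (-0.14), DDB1 over DDB2 (-0.15), ERCC6 over ERCC8 (-0.35) and RAD50 over MRE11 (0.35). With GC and length adjusted for, the shift was 0.080 for XRCC5 over XRCC6, -0.040 for DDB1 over DDB2, 0.12 for ERCC1 over ERCC4 and -0.93 for MSH3 over MSH6.

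**Figure D3:**
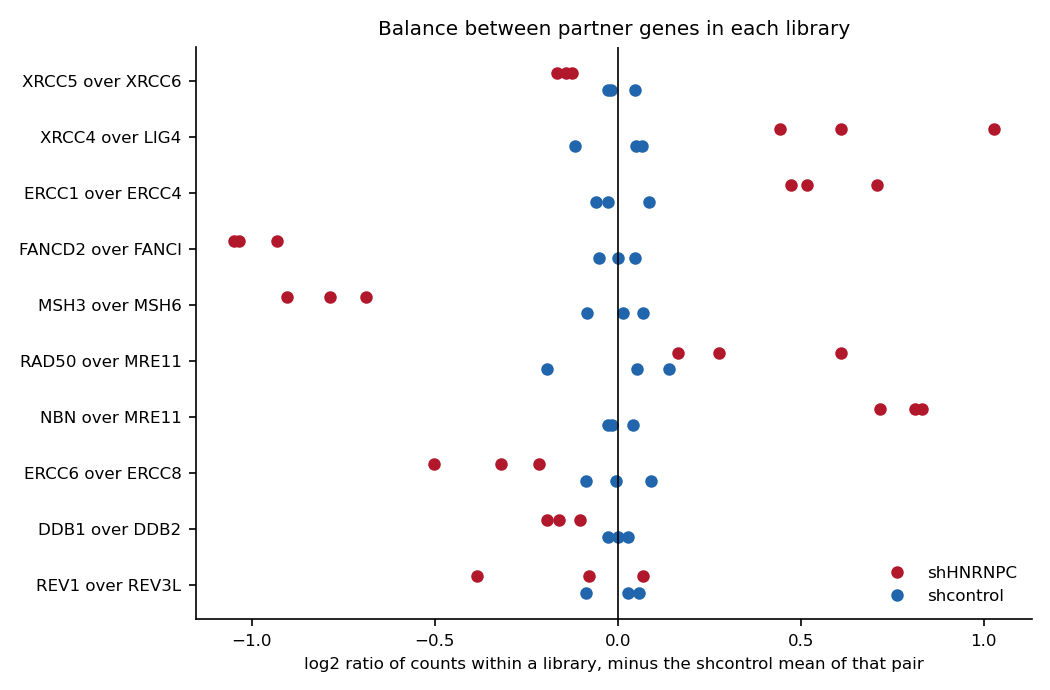
Log2 ratio of counts of 10 partner pairs in each library, with the shcontrol mean of the pair subtracted. Points are single libraries, shHNRNPC above shcontrol in each row. FANCD2 over FANCI shifts by -1.005 and MSH3 over MSH6 by -0.79, whereas REV1 over REV3L overlaps.

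Levels between genes were compared as CPM per kilobase of the longest coding transcript. The most abundant repair transcript on this scale was XRCC6, at 284 ± 4.41 in shHNRNPC and 258 ± 2.52 in shcontrol (SD, n = 3 each). ERCC2 followed in shcontrol, at 137 ± 3.83 in shHNRNPC and 173 ± 1.09 in shcontrol, and APEX1 came after it, at 183 ± 5.04 in shHNRNPC and 162 ± 3.66 in shcontrol. Apart from RAD50 and ERCC5, whose counts are uncertain, FANCM was the least abundant, at 0.401 ± 0.0255 in shHNRNPC and 0.706 ± 0.0545 in shcontrol. Across the 46 genes the log2 fold change had a Spearman correlation of 0.45 with the shcontrol CPM, beside 0.012 over all 11831 tested genes. The 15 repair genes under 20 CPM in shcontrol had a median log2 fold change of -0.54, and the 31 genes above it -0.083. Genes share libraries and are not independent replicates, so these correlations are descriptions.

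Fold changes varied with transcript composition across the whole table. Over all tested genes with an annotated coding transcript, the Spearman correlation of the log2 fold change was 0.43 with transcript GC content and -0.32 with transcript length (n = 11813), and -0.31 with the span of the gene (n = 11831). Among the 46 repair genes these were 0.50, -0.54 and -0.32. All tested genes were split into 3 sets of equal size at GC contents of 44.1% and 54.0%. In the set of lowest GC content 16 of 24 repair genes were lower, beside 54.5% of 3938 genes in the table. In the middle set 3 of 12 were lower and 4 higher, beside 25.2% and 33.5% of 3937 genes. In the set of highest GC content 5 of 10 repair genes were lower, beside 14.4% of 3938 genes. MRE11 (38.5%), RIF1 (37.3%), LIG4 (36.2%) and POLK (34.7%) belong to the lowest set, and ERCC2 (59.99%) and XRCC1 (58.3%) to the highest.

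**Figure D4:**
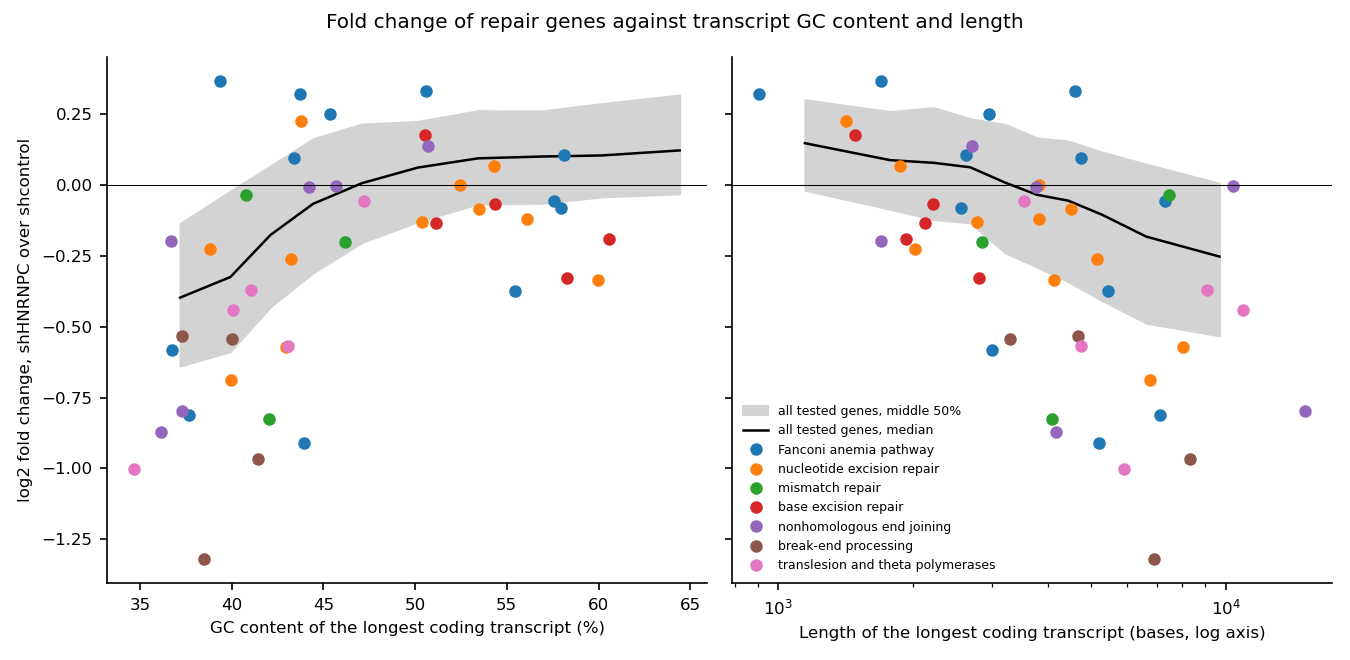
Log2 fold change of the 46 repair genes against GC content in percent (left) and length in bases on a log axis (right) of the longest coding transcript. The line and band are the median and the middle 50% of all tested genes in deciles. MRE11 at -1.32 lies below the band at its GC content, as do XRCC1 at -0.33 and ERCC2 at -0.34 at high GC content.

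When GC content and length were adjusted for, 23 of 46 repair genes were lower and 9 higher, and the median was -0.19. Of all 11813 genes tested in that fit, 3548 were lower and 3086 higher, with a median of -0.018. Between pathways the order shifted. The median was -0.48 for broken-end processing, with 4 of 4 lower, but that value rests on the uncertain count of RAD50. Without RAD50 the median of the other 3 genes was -0.32, and NBN was at -0.17 with an edgeR adjusted p of 0.0407. With RAD50 added to AC116366.3 in the adjusted fit, the sum was higher, at 0.39 (edgeR adjusted p = 0.00399), and the median of the 4 was -0.25. The median was -0.29 for base excision repair, with 4 of 5 lower, and -0.076 for the polymerases, with 2 of 5 lower. MRE11 kept a log2 fold change of -0.93 (adjusted p = 3.55e-13), FANCD2 of -0.74 (adjusted p = 1.68e-16) and MSH3 of -0.63 (adjusted p = 6.88e-07, all by edgeR). Other genes were called lower with a change more than 1.5 times smaller than as counted: RIF1 at -0.32, FANCM at -0.40 (edgeR adjusted p = 0.0466), ERCC4 at -0.34, ERCC6 at -0.31, LIG4 at -0.50, POLK at -0.54, RBBP8 at -0.32 and NBN. Called falls that grew were those of FANCA (-0.41), ERCC1 (-0.22), ERCC2 (-0.43), ERCC3 (-0.25) and DDB1 (-0.15). In base excision repair those of XRCC1 (-0.47), UNG (-0.29) and MUTYH (-0.38) grew. Such an adjustment also removes any true difference that runs with GC content or length.

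**Figure D5:**
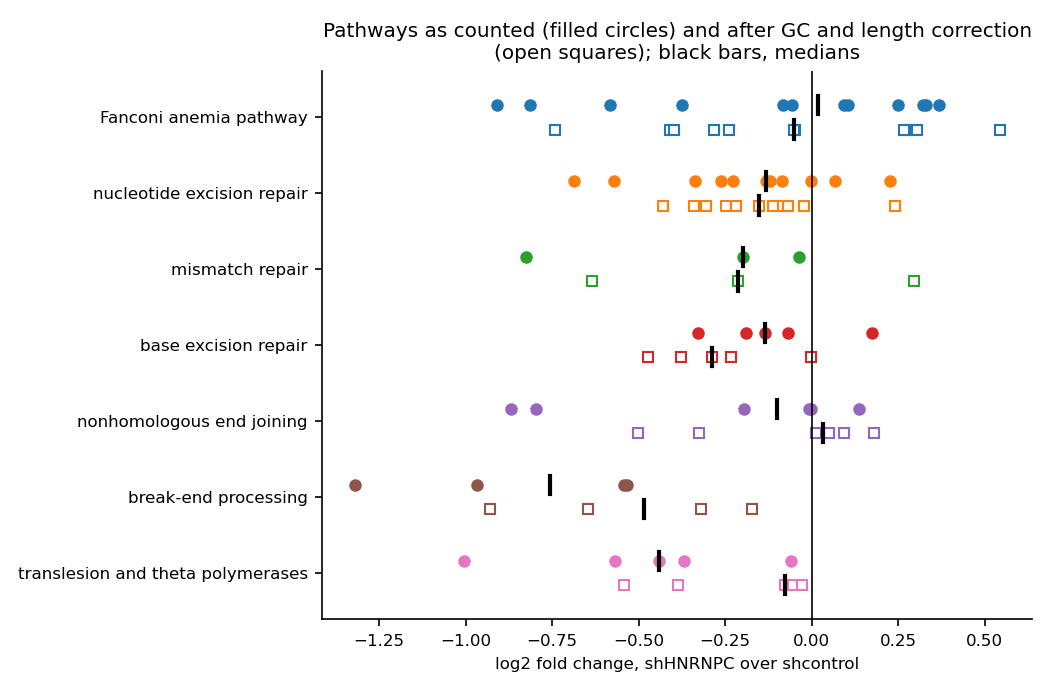
Log2 fold change of the members of each pathway as counted (filled circles) and adjusted for GC content and length (open squares), with black bars at the medians. The polymerases shift from a median of -0.44 to -0.076, and broken-end processing from -0.76 to -0.48, or to -0.32 without RAD50, whose count is uncertain, beside -0.29 for base excision repair.

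Other genes of the same pathways, listed by pathway but with earlier results of these data known, went both ways. Of 89 listed, 84 were tested, of which 30 were lower (35.7%) and 22 higher (26.2%), with a median log2 fold change of -0.039. Of all tested genes 31.3% were lower and 29.8% higher, so these shares were near those of the whole table. In the Fanconi list 5 of 13 rose and 4 fell. USP1, the protease that removes ubiquitin from FANCD2, fell 1.76-fold, to 35.0 ± 0.606 CPM in shHNRNPC, against 61.6 ± 3.54 CPM in shcontrol (SD, n = 3 each, edgeR adjusted p = 8.90e-18). The nuclease gene FAN1 rose 1.64-fold, at 1.77 ± 0.214 CPM in shHNRNPC and 1.07 ± 0.197 CPM in shcontrol (adjusted p = 0.0272).

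In mismatch repair 3 of 14 rose and 7 fell. EXO1, the exonuclease that removes the strand with the error, fell 2.56-fold, to 13.8 ± 0.413 CPM in shHNRNPC, against 35.3 ± 1.62 CPM in shcontrol (SD, n = 3 each, edgeR adjusted p = 1.12e-20). The clamp loader subunit RFC1 fell 1.605-fold and PMS1 rose 1.79-fold. In excision repair 7 of 17 tested fell and 3 rose, with CUL4B, a scaffold of the ubiquitin ligase that holds DDB1, at 65.4 ± 1.01 CPM in shHNRNPC and 130 ± 1.28 CPM in shcontrol, a 1.98-fold fall (adjusted p = 3.23e-26).

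Among the other polymerase and bypass genes 4 of 7 fell and 2 rose. HLTF, a translocase that remodels stalled forks, fell 2.49-fold, to 16.1 ± 0.439 CPM in shHNRNPC, against 40.0 ± 3.02 CPM in shcontrol (SD, n = 3 each, edgeR adjusted p = 9.96e-21), and POLI, another translesion polymerase, fell 1.51-fold. In the list of end processing 2 of 4 fell and 1 rose, among them a 1.67-fold fall of the helicase gene BLM. In end joining 4 of 14 tested fell and 2 rose. SHLD1 and SHLD2, subunits of the shieldin complex that acts with RIF1, moved apart, with a 1.79-fold rise of SHLD1 and a 1.52-fold fall of SHLD2, and APLF fell 1.57-fold. In base excision repair 6 of 16 rose and 3 fell, and the glycosylase gene NEIL1 rose 2.31-fold, at 4.07 ± 0.834 CPM in shHNRNPC and 1.77 ± 0.395 CPM in shcontrol (adjusted p = 4.80e-06).

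Many repair genes are transcribed most in S phase, and genes of that phase moved both ways. Of 29 S phase genes 15 were higher (51.7%) and 8 lower (27.6%), beside 29.8% and 31.3% of all tested genes. Their summed level, without TMM factors, was 5311 to 5343 CPM in shHNRNPC and 5193 to 5214 in shcontrol. Of 6 genes of proliferation 2 were higher and 3 lower, with a sum of 986 to 1018 in shHNRNPC and 1114 to 1127 in shcontrol. All 18 tested genes of an interferon response list were higher, with a sum of 12420 to 12500 in shHNRNPC and 5797 to 5988 in shcontrol. The part of these in the repair genes' levels was not tested.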

How the data were processed

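RNA sequencing of 6 MHCC97H libraries was analysed from the deposited gene table. It holds counts per gene, deposited by the authors as raw whole numbers. The authors' log2 fold changes and p-values also stand in the deposited table, and the log2 fold changes of the repair genes differ from those given here by at most 0.0107. STAR, HTSeq 0.6.0 and DESeq2 are listed as tools in the submitters' processing notes. Build, annotation and strand setting: not given in the sources used here. Columns were tied to groups by their names (NC, SI), not to single samples, and 24 other per-library columns were not used.

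Counts were tested with edgeR 4.0.16 (R 4.3.3): filterByExpr, TMM scaling and the quasi-likelihood test, with Benjamini-Hochberg adjustment over all 11831 tested genes and a threshold of 0.05. A simulation of counts for 11770 genes, 200 of them changed, gave 7 false calls. It recovered 76.1% of genes changed by 0.322 on the log2 scale, 91.0% at 1.5-fold and 97.0% at 2-fold. In the real libraries far more genes passed the threshold (7228 of 11831), so the simulated rates need not hold for them. Replicates were compared by the chi-square per gene of their counts, which was 1.56 to 2.50 within groups and 29.4 to 33.7 between groups, so no library repeated another. Transcript length, GC content, gene span and shared exons came from GENCODE 29, and promoters from RefSeq (GRCh38.p14). The adjustment for GC and length subtracted, in each library, a spline with 4 degrees of freedom per feature.

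The members and lists were chosen with earlier results of these data known. Values in every library are given for genes past the threshold and changed by 0.322 or more on the log2 scale and for their partners, and other pathway genes are named where past it at 1.5-fold or more. Alternatives were RLE and upper-quartile scaling, library size alone, DESeq2 1.42.0, other filters, a test against a log2 change of 0.322, the adjustment for GC and length, and leaving out each library.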

Additional observations from a re-analysis of the deposited data

How the results depend on the processing

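The count of repair genes called stayed between 6 and 9 higher and between 23 and 28 lower over the scalings, filters, DESeq2 and the GC and length correction, and between 6 and 8 higher and 23 and 25 lower without any 1 library. Tested against a log2 change of 0.322, 0 were higher and 13 lower, where 6.47% and 12.6% of all genes were. No paired analysis was possible because the columns carry no replicate number of the sample titles.

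With library size alone the pathway median was -0.022 for Fanconi genes, -0.17 for nucleotide excision, -0.24 for mismatch and -0.18 for base excision repair. With the GC and length correction it was -0.050 for Fanconi genes, -0.29 for base excision repair, 0.031 for end joining, -0.48 for broken-end processing and -0.076 for the polymerases. The correlation with gene span was then -0.011, and the partner shifts were 0.080 (XRCC5 over XRCC6), 0.12 (ERCC1 over ERCC4), -0.93 (MSH3 over MSH6) and -0.040 (DDB1 over DDB2). Without 1 library the median ranged from -0.16 to -0.11 for nucleotide excision, -0.24 to -0.16 for mismatch repair and -0.20 to -0.0032 for end joining. With RAD50 added to AC116366.3, an alternative chosen after seeing the data, the sum was at 0.071. Broken-end processing, with the sum in place of RAD50, was then at -0.54. With the GC and length correction, also chosen after seeing the data, the same sum was at 0.39 and called higher. Broken-end processing was then at -0.25, and 10 repair genes, the sum counted as RAD50, were higher and 22 lower. RAD50 by itself was at -0.65 with the correction and called lower. Without RAD50 the corrected median of broken-end processing was -0.32.

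Sign changes were seen mostly in genes near 0. With the correction, log2 fold changes were -0.047 for FANCG, -0.11 for DDB2, 0.30 for MSH6, -8.2e-04 for APEX1, 0.092 for XRCC5, 0.050 for XRCC4 and 0.18 for TP53BP1, and of these MSH6, XRCC5 and TP53BP1 were called higher. XPC was at 0.0053 (RLE), 0.014 (upper quartile), 0.0023 (no filter), 0.0024 (1 CPM) and 0.0044 (DESeq2), and between -0.065 and 0.053 without any 1 library. TP53BP1 was at 0.0034 (RLE), 0.012 (upper quartile), 9.9e-04 (no filter), 0.0011 (1 CPM) and 0.0032 (DESeq2), and between -0.041 and 0.043 without any 1 library. XRCC5 was at 5.4e-05 (RLE), 0.0083 (upper quartile), 6.2e-05 (DESeq2) and between -0.029 and 0.014 without any 1 library, and XRCC4 between -0.37 and 0.016. With library size alone FANCE, ERCC8, MSH6 and PMS2 were called lower. The causes were not tested. Genes with few counts, such as RAD50, ERCC5 and XRCC4, have standard errors of 0.20 to 0.23 on the log2 scale, which limits what fold could be detected.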
